A study of Mus musculus with 6 samples.

Results

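The locus of Gata6 was examined in CUT&RUN data for GATA4 and GATA6 from mouse extra-embryonic endoderm (XEN) cells, to ask where both factors were recovered around the gene that encodes one of them. In CUT&RUN an antibody tethers a nuclease to a chromatin protein, and the short fragments cut loose beside it are sequenced. The locus was taken as the Gata6 gene body together with all sequence within 100 kb of its annotated transcription start sites (TSSs), which is chromosome 18 from 10952064 to 11159047 in mm10, 207 kb in all. Every called region with at least 1 bp in this window was a member, whatever its signal. There were 49 such regions in the lists of the 6 libraries, and merging those that overlapped or touched left 24, of 201994 merged regions in the whole series.

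Each factor was profiled in 3 libraries of 500000 cells, and the labels put all 6 on the XEN line 3F2. The line was derived from mice that carry a doxycycline-inducible Oct4, Klf4, Sox2 and mCherry cassette at Col1a1, the M2rtTA transactivator at Rosa26 and an Oct4-GFP reporter. The alleles are thus common to the GATA4 and the GATA6 libraries, which differ in the antibody. The starting XEN cells were profiled, before any reprogramming. The methods text names another 3F line beside it and a different number of replicates, so p-values here measure the spread between libraries that may be technical repeats. Each library came with its own list of called regions, of 42446 to 49597 regions, and each factor with 1 combined list of regions present in all of its replicates. The files hold no expression values, so the label XEN could not be checked against marker genes.

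GATA6 is a zinc finger transcription factor that marks the primitive endoderm (PrE) from the inner cell mass onward, where it opposes the epiblast factor NANOG. GATA4 acts after it in the same lineage, and forced expression of either factor turns ES cells toward a XEN state. Both proteins read the same short DNA motif, GATA preceded by A or T and followed by A or G, and GATA genes are known to be wired to their own and each other's regulatory elements. The motif was searched on both strands in its 4 spellings, of which AGATAA is one, and a match is a description and not a site.

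Gata6 lies on the forward strand from 11052064 to 11085635, and its 6 annotated transcripts start at 6 different positions. The first TSS, at 11052064, belongs to a short protein-coding transcript, and that of the full-length transcript is at 11052470. The only other gene of the annotation inside the window is the lncRNA gene 1010001N08Rik, listed by RefSeq as Gata6os. It runs the opposite way from 11052567 back to 10987944, so that its start overlaps that of Gata6 and its introns cover most of the upstream flank. A region at that shared start cannot be assigned to one gene or the other. The nearest protein-coding neighbours, Mib1 upstream and Rbbp8 downstream, end or begin 133360 bp and 474229 bp beyond the window.

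Calls of GATA4 and GATA6 overlapped in all 6 libraries at 1 place, the start of Gata6 itself. The GATA4 libraries also shared 3 regions between 42.7 and 47.7 kb upstream, inside introns of the lncRNA gene, each of which was called in 1 or 2 GATA6 libraries. A further region in an intron of Gata6, 26.3 kb from the first TSS, was called in 2 libraries of each factor. The rest of the window held mostly regions seen in 1 library. The authors' combined lists accordingly held 4 GATA4 regions and 1 GATA6 region here.

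**Figure D1:**
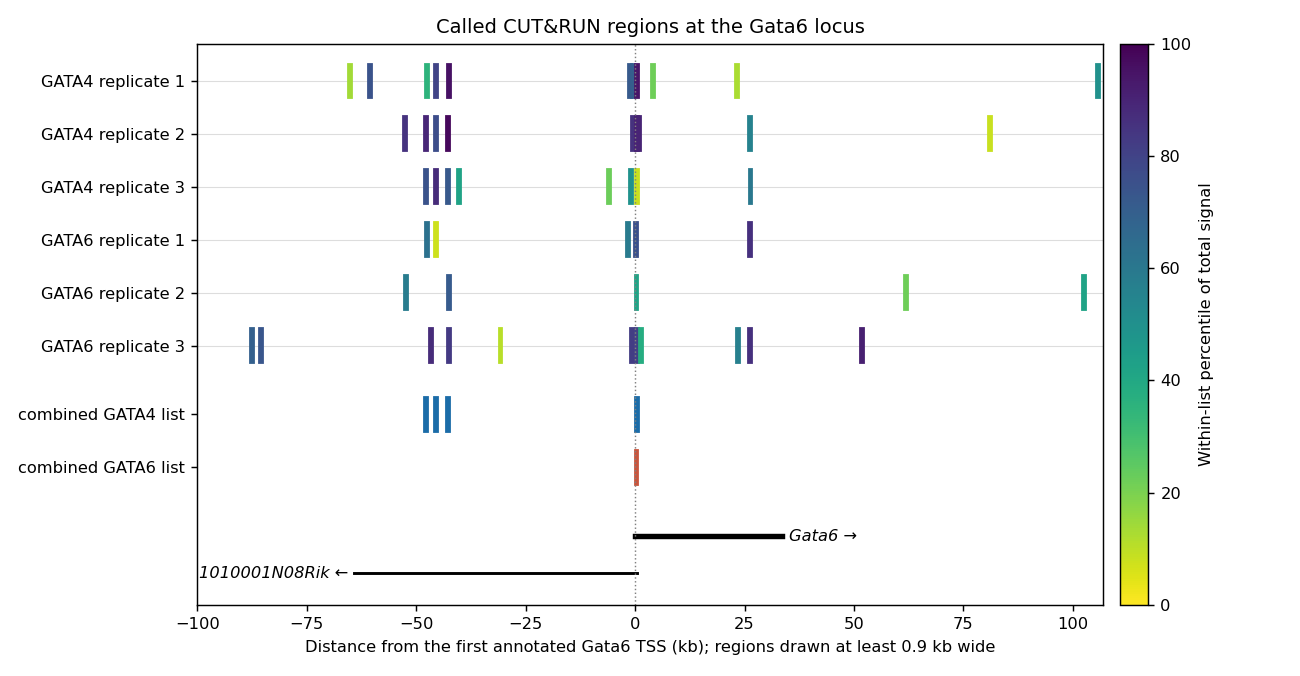
Called regions of the 6 libraries and the 2 combined lists along the Gata6 window, in kb from the first annotated TSS (dotted line), with bars coloured by the within-list percentile of total signal and the 2 genes drawn below. Bars of all 6 libraries line up at the start of Gata6, and bars of the 3 GATA4 libraries line up at 3 positions between 42.7 and 47.7 kb upstream.

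Signal is given here as a within-list percentile, the share of regions in the same library with a lower total signal (fragment pileup summed over the region), because the deposited signal is not scaled for depth. The maximum signal is the fragment count at the summit, where the pileup of a region peaks. The summit position is the middle of the stretch at that count, and such stretches were 1 to 269 bp long at the locus. Its median was 4 in every list, and at the locus it ran from 3 to 13, so that the regions described here rest on few fragments. The reads left in each library after filtering are unknown.

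The region at the gene start spanned 11052134 to 11052690, 557 bp, and was called in 3 GATA4 and 3 GATA6 libraries. It covered the TSSs of the full-length transcript and of a retained-intron transcript of Gata6, as well as those of 2 transcripts of the lncRNA. It overlapped exon and UTR sequence of Gata6, and its midpoint was in an intron of the short transcript. Its maximum signal was 9, 9 and 6 fragments in GATA4 replicates 1, 2 and 3, and 5, 5 and 9 in GATA6 replicates 1, 2 and 3. The values of both factors overlapped, with means of 8 ± 1.73 and 6.33 ± 2.31 fragments (SD, n = 3; not scaled for depth). By total signal the percentiles were 94.4, 90.8 and 8.49 in the GATA4 libraries and 75.2, 41.5 and 80.7 in the GATA6 libraries. GATA4 replicate 3 was the lowest of the 6, and its call was also the narrowest, at 287 bp against 329 to 427 bp in the others. GATA4 thus averaged the percentile 64.6 ± 48.6 and GATA6 the percentile 65.8 ± 21.2 (SD, n = 3), a difference far smaller than the spread between replicates (two-sided exact permutation p = 1). Scored per bp, the region ranked higher and more evenly, at 90.9 ± 4.68 for GATA4 and 84.9 ± 5.93 for GATA6 (SD, n = 3; exact permutation p = 0.3). No exact permutation test of 3 against 3 libraries can go below p = 0.1.

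The summits of the region fell close together. Measured from the first TSS, the middle of the stretch of maximum signal was at 384, 416 and 408.5 bp in the GATA4 libraries and at 389, 353.5 and 314.5 bp in the GATA6 libraries. All 6 thus lay within 101.5 bp of each other, from just before to just past the TSS of the full-length transcript. The GATA6 summits averaged 50.5 bp nearer to the first TSS, at 352 ± 37.3 bp against 403 ± 16.7 bp (SD, n = 3; two-sided exact permutation p = 0.2), and GATA6 replicate 1 overlapped the GATA4 values. In replicates 1, 2 and 3 the stretches of maximum signal were 5, 29 and 44 bp long for GATA4 and 105, 72 and 4 bp for GATA6. The SDs do not include these lengths. None of the 4 spellings of the motif occurred in the region or within 100 bp of its ends. GC content around the summit was 62.2%, equal to the median of 62.2% over the 1933 merged regions that were called in all 6 libraries and covered a protein-coding TSS. Of those 1933 regions, 14.4% held the motif within 100 bp of the summit.

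A region over a TSS in all 6 libraries was found at 10.1% of 21755 protein-coding genes, and at 8.38% of the 513 on chromosome 18. Anywhere in the window, such a region was found at 42.3% of the genes and at 33.5% of those on chromosome 18. A combined GATA4 region covered a TSS at 18.1% (17.3% on chromosome 18), and a combined GATA6 region at 12.7% (12.5% on chromosome 18). For the region at Gata6 the mean percentile of total signal over the 6 libraries, 65.2, was low among the 1933 TSS regions of this kind. Their median was 88.0, and only 5.43% of them were lower. The mean includes the 8.49 of GATA4 replicate 3, whose call was the narrowest. Scored per bp the region averaged 90.9 for GATA4 and 84.9 for GATA6, and its rank per bp was not taken.

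**Figure D2:**
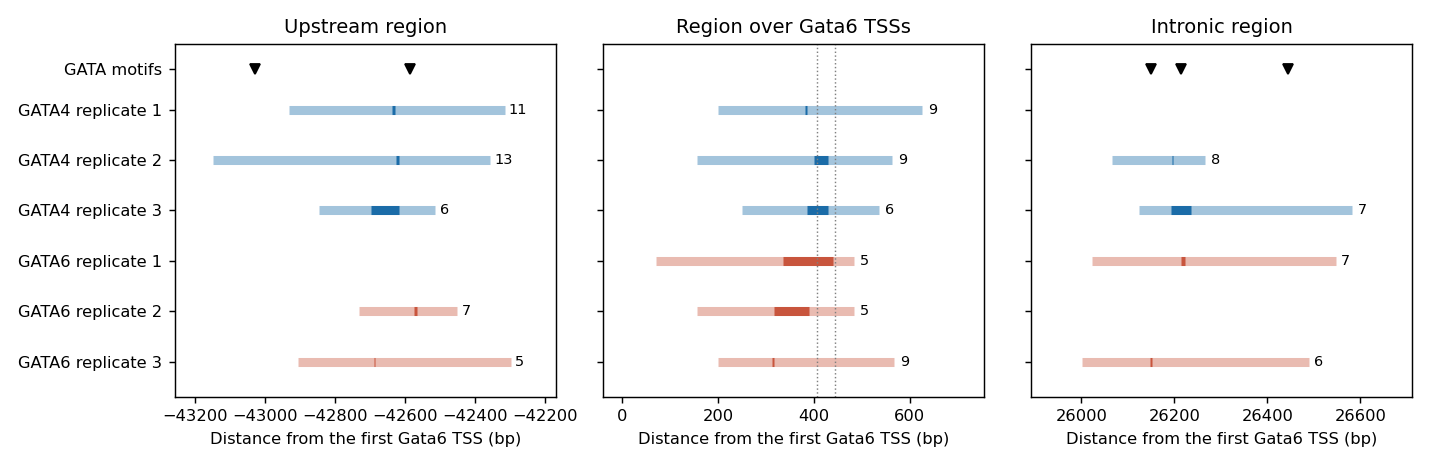
Called extents (pale) and stretches of maximum signal (dark) in each library for the upstream region at 42.7 kb, the region over the Gata6 TSSs (dotted lines) and the intronic region at 26.3 kb, against distance from the first TSS in bp. The number beside each bar is its maximum signal in fragments, between 5 and 13, and triangles mark GATA motifs, of which the middle panel has none.

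Upstream of the gene, the 3 regions common to all GATA4 libraries lay within 5910 bp of each other. Their midpoints were 47.7, 45.6 and 42.7 kb before the first TSS, all in introns of 1010001N08Rik. So tight a run of 3 was rare in the combined GATA4 list. Of its 8282 regions, 220 (2.66%) lay in a run of 3 within the same length, and on chromosome 18 these 3 were the only ones among 232. The length was set by the run itself, so these shares are a description.

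The region nearest to the gene, 11008917 to 11009768, had the highest signal of the locus. Its maximum signal was 11, 13 and 6 fragments in the GATA4 libraries, and 7 and 5 in GATA6 replicates 2 and 3. Its percentiles were 95.4, 98.0 and 72.5 for GATA4 replicates 1, 2 and 3. In GATA6 replicates 2 and 3 they were 71.6 and 83.0, within the range of the GATA4 libraries or just below it, and GATA6 replicate 1 had no call here. The mean GATA4 percentile of 88.6 ± 14.0 (SD, n = 3) was above that of 59.0% of the regions in the combined GATA4 list. The other combined GATA4 regions of the locus were below the list median of 85.0. Those shares were 41.9% for the region at 45.6 kb, 19.7% for that at 47.7 kb and 17.5% for that at the gene start. The 5 summits lay within 117 bp of each other, and 1 of the 2 motifs inside the region was 16 to 101 bp from them.

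The middle region, 11006248 to 11006770, was called in the 3 GATA4 libraries and in GATA6 replicate 1. Its maximum signal was 9, 7 and 10 fragments in the GATA4 libraries, and 3 in the single GATA6 library. The GATA4 percentiles were 79.9, 76.6 and 87.7, whereas that of GATA6 replicate 1 was 7.53. By total signal the GATA6 call was thus near the bottom of its own list, but per bp its percentile was 68.8, against 94.4, 82.7 and 88.7 in GATA4 replicates 1, 2 and 3. With 1 library of GATA6 there is no spread to set this against. The region held 3 motifs, the nearest 18.5 to 65 bp from the 4 summits. In GATA6 replicate 1 the stretch of maximum signal was 268 bp long, so the middle of it is a loose position.

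The farthest of the 3, 11003841 to 11004819, was called in the same 4 libraries and was the broadest of the 3, at 979 bp. The maximum signal was only 3, 5 and 4 fragments in the GATA4 libraries and 4 in GATA6 replicate 1. The percentiles were 35.4, 89.4 and 74.4 for GATA4 and 62.7 for GATA6, so GATA6 fell inside the GATA4 range. The region held 4 motifs, the nearest 20 to 93.5 bp from the summits. The stretches of maximum signal ran from 8 bp in GATA4 replicate 2 to 215 bp in GATA4 replicate 1. GATA6 replicate 3, which had no call here, had one of its own at 11005090 to 11005623, between this region and the middle one, at the percentile 87.7 and a maximum of 5 fragments.

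The upstream flank held 2 further regions of more than 1 library. One, at 10999313 to 10999794 and 52.5 kb before the first TSS, was called in replicate 2 of each factor, at the percentiles 85.2 for GATA4 and 58.3 for GATA6 and with a maximum of 5 fragments in both. The other was the proximal stretch from 11050732 to 11051892, which ends 172 bp before the first TSS. It lay in an exon of the lncRNA and covered the TSS of its retained-intron transcript. It was called in the 3 GATA4 libraries and GATA6 replicate 3, at percentiles between 48.9 and 85.8, but the calls formed a chain in which no base was shared by all of them. GATA4 replicate 1 called both ends of it, replicate 3 the far end and replicate 2 the near end. Between the ends the GATA4 calls left a gap, from 11051273 to 11051413, that only the GATA6 call spanned. With the GATA4 lists alone, neither end holds all 3 libraries, and the stretch is therefore absent from the combined GATA4 list. Counting it, as merged over both factors, would raise the 4 GATA4 regions to 5.

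Within the gene, the clearest region was that in the intron, 11078066 to 11078646. It was called in GATA4 replicates 2 and 3 and in GATA6 replicates 1 and 3. The maximum signal was 8 and 7 fragments for GATA4, and 7 and 6 for GATA6. The GATA4 percentiles of 55.5 and 59.8 were both below the GATA6 percentiles of 86.0 and 86.3. By maximum signal the factors interleaved, with percentiles of 89.0 and 85.6 for GATA4 and 88.7 and 83.4 for GATA6. The 4 summits lay within 69 bp of each other, and a motif was centred 0 to 17.5 bp from each of them. Since this region lacks 1 library of each factor, it is in neither combined list.

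The other intronic region, 11075039 to 11075834, was called in GATA4 replicate 1 and GATA6 replicate 3, at the percentiles 12.6 and 56.7 and with 4 and 5 fragments at the maximum. Both summits were within 12.5 bp of each other and within 10 bp of a motif. Directly after the TSS region, a stretch from 11052725 to 11053694 covered exon and UTR sequence of Gata6 and a further protein-coding TSS, at 11053044. GATA4 replicate 2 called its first part at the percentile 90.0 and GATA6 replicate 3 its last part at 38.0. It held 5 motifs, of which the nearest was 2 bp from the GATA4 summit and 236.5 bp from the GATA6 summit. A single call of GATA4 replicate 1, at the percentile 21.9, lay in an exon of a retained-intron transcript, 11055832 to 11056267.

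**Figure D3:**
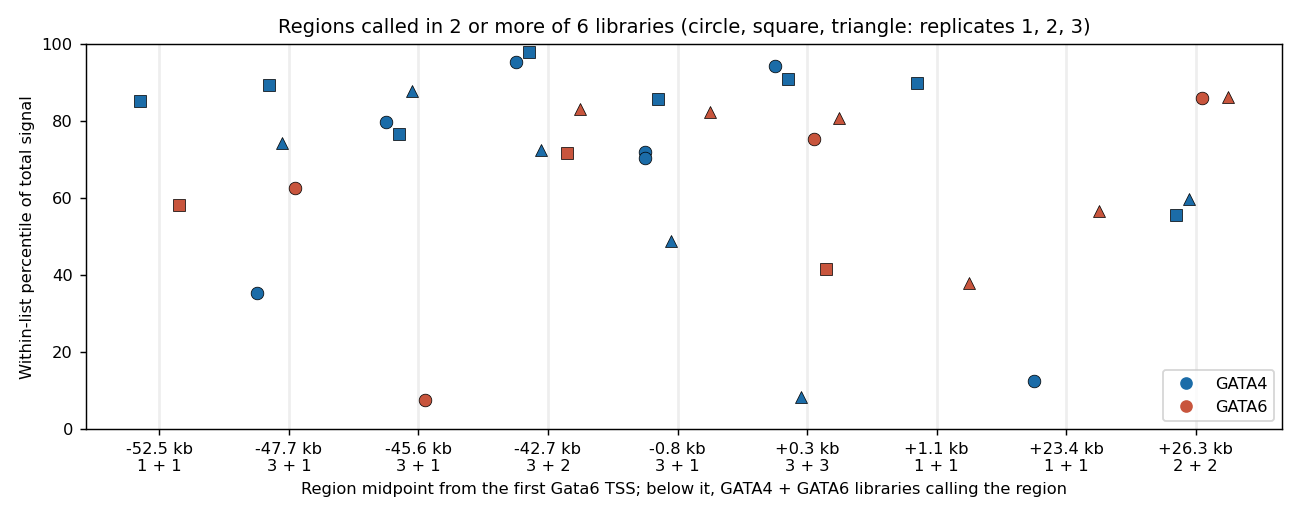
Within-list percentile of total signal (0 to 100) in each library for the 9 regions called in 2 or more libraries, ordered by position from the first Gata6 TSS, with the number of GATA4 and GATA6 libraries under each. The region at the gene start has a value in all 6 libraries, from 8.49 to 94.4, and at 45.6 kb upstream the single GATA6 value of 7.53 lies below the 3 GATA4 values.

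The remaining regions were called in 1 library each, 15 of the 24 (62.5%, against 83.2% of all merged regions). Besides those already named, they were upstream at 10964181 to 10964826 and 10966436 to 10966864, both in GATA6 replicate 3 at the percentiles 69.8 and 73.1. GATA4 replicate 1 had 2, at 10986757 to 10987036 and 10991260 to 10991888, at the percentiles 13.9 and 74.4. GATA4 replicate 3 called 11011641 to 11012209 and 11045841 to 11046281, at 42.1 and 22.6. GATA6 replicate 3 called 11021130 to 11021495 at 10.6, and GATA6 replicate 1 called an exon of the lncRNA, 11050200 to 11050649, at 59.0. None of these 8 regions had a maximum above 5 fragments.

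Downstream of Gata6, in 73.4 kb of intergenic sequence, all 5 regions were of 1 library. GATA6 replicate 3 called 11103547 to 11104264 at the percentile 91.3, although its maximum was 4 fragments. GATA6 replicate 2 called 11113724 to 11114095 and 11154354 to 11154844 at 22.0 and 42.1. GATA4 replicate 2 called 11132969 to 11133316 at 8.52, and GATA4 replicate 1 called 11157533 to 11157932 at 49.9. Before the gene 5 of 14 regions were of 2 or more libraries, and in its body 4 of 5 (16.8% over all merged regions). Over all merged regions 83.2% were called in 1 library, so 5 of 5 downstream sets this flank little apart. A link with position was not tested.

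At the edges of the window, the nearest region outside was 3185 bp beyond the upstream limit, 10947967 to 10948879. It was called in the 3 GATA4 libraries and GATA6 replicate 1, at percentiles between 53.9 and 88.8, and is in the combined GATA4 list, but the 100 kb rule leaves it out. On the other side the first region beyond the window was 33968 bp away and was called in 1 library.

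Taken over the locus, 9 of the 24 merged regions (37.5%) were called in 2 or more libraries, against 16.8% of the 201979 merged regions on the autosomes and X. Regions of all 3 GATA4 libraries numbered 5 (background 4.11%), regions of all 3 GATA6 libraries 1 (background 2.60%) and regions of all 6 libraries 1 (background 1.87%). Of the 5 with all GATA4 libraries, 1 is the proximal stretch. Its GATA4 calls were joined only by a GATA6 call, so its GATA6 library followed from the merging. The other 4, those of the combined GATA4 list, each had at least 1 GATA6 library (91.0% genome-wide). All 3 GATA6 libraries were present at 1 of them (45.7% genome-wide). Both factors were represented at 9 regions (37.5%, against 12.5% of all merged regions). GATA4 alone was represented at 7 (29.2%, against 44.6%) and GATA6 alone at 8 (33.3%, against 42.9%). The counts are small, and nothing is read from them as particular to Gata6.

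The motif lay within 100 bp of the summit in 9 of the 24 regions (37.5%), close to the 40.4% over all merged regions. Here the summit is that of the library with the highest percentile. By the number of libraries the 9 divided unevenly, into 7 of the 9 regions with 2 or more libraries and 2 of the 15 with 1. Over all merged regions the corresponding shares were 40.8% and 40.3%. The split at the locus rests on few regions and was not tested. It refers to the 100 bp reach, and several regions of 1 library held a motif farther from the summit. Of the 5 regions of all GATA4 libraries, 4 held the motif at this distance (44.1% genome-wide), the exception being the one at the gene start. Among the 4 is the proximal stretch, whose GATA4 calls were joined only by a GATA6 call. A motif centred within 20 bp of the summit was found in 4 regions, against 10.7% of all merged regions. These 4 were the farthest upstream region of the run of 3, the stretch after the TSS and both regions in the Gata6 intron. The 20 bp limit was chosen after the distances were seen.

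The number of regions in the window was 11, 9 and 8 in GATA4 replicates 1, 2 and 3, and 5, 5 and 11 in the GATA6 replicates. The means were 9.33 ± 1.53 and 7 ± 3.46 (SD, n = 3), and the difference of 2.33 regions was within the spread between libraries (two-sided exact permutation p = 0.4). GATA6 replicate 3 stood apart from the other GATA6 libraries. Without it the difference was 4.33 regions, and the GATA4 and GATA6 counts no longer overlapped (exact permutation p = 0.1, the smallest that 3 against 2 libraries allow). The difference was 1.33 regions without GATA6 replicate 1 or 2 (exact permutation p = 0.7), 1.5 without GATA4 replicate 1 (exact permutation p = 0.6) and 1.33 with lists cut to equal length (exact permutation p = 0.7). Of the 11 regions of GATA6 replicate 3, 5 were in no other library. The share in another library was thus 54.5%, against 37.0% over all merged regions of this library. In the other libraries that share was 60% to 88.9% at the locus and 36.5% to 40.6% over all their merged regions.

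The summed signal of these regions made up 0.0233%, 0.0267% and 0.0148% of the total signal in the GATA4 lists, and 0.0104%, 0.0102% and 0.0264% in the GATA6 lists. The difference of 0.00593 percentage points was again within the spread (exact permutation p = 0.3), and leaving out 1 library at a time gave 0.00322 to 0.0113. It was largest without GATA6 replicate 3 (exact permutation p = 0.2), rose to 0.00931 without GATA4 replicate 3 (exact permutation p = 0.3), and was lowest without GATA6 replicate 1 or 2 or GATA4 replicate 2 (exact permutation p = 0.6 each). Regions with a maximum above 5 fragments numbered 3, 4 and 5 in the GATA4 libraries and 1, 1 and 2 in the GATA6 libraries, so these groups did not overlap (4 ± 1 against 1.33 ± 0.577, SD, n = 3; exact permutation p = 0.1). Such regions were also a larger part of the GATA4 lists as a whole, at 23.8% to 24.3%, than of the GATA6 lists, at 17.0% to 20.4%. Their part in the difference at Gata6 was not tested.

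**Figure D4:**
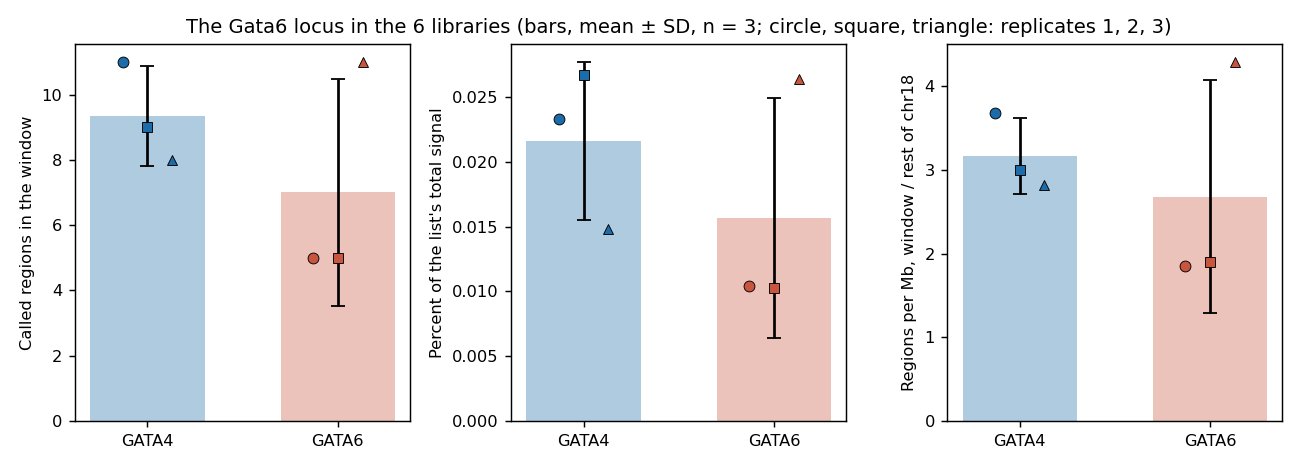
Called regions in the Gata6 window (left), their percent of the list's total signal (middle) and the number of regions per Mb in the window divided by that of the rest of chromosome 18 (right), per library with mean ± SD (n = 3). GATA6 replicates 1 and 2 are the lowest points in each panel, and GATA6 replicate 3 is as high as the highest GATA4 library in the left panel and above all others in the right one.

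Called regions were denser at Gata6 than over the rest of its chromosome in all 6 libraries. The window held 24.2 to 53.1 regions per Mb, against 12.4 to 14.5 for the rest of chromosome 18. The ratio was 3.68, 3.00 and 2.82 in the GATA4 libraries (3.17 ± 0.454, SD, n = 3). It was 1.85, 1.90 and 4.29 in the GATA6 libraries (2.68 ± 1.39, SD, n = 3; two-sided exact permutation p = 0.6 between factors). Against all autosomes the ratios were 2.40 ± 0.348 and 1.96 ± 0.967. Windows around genes held a median of 4 to 5 regions per library on chromosome 18, so a count of 5, as in GATA6 replicates 1 and 2, was near that of other genes. In these libraries 55.9% and 59.3% of the 513 genes had fewer regions than Gata6, against 80.5% to 92.8% in the GATA4 libraries and 96.5% in GATA6 replicate 3.

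The same ratio was taken for 3 other regulators and markers of the lineage, each against its own chromosome. Over the 6 libraries it was 2.92 ± 0.965 for Gata6 and 3.18 ± 0.571 for Gata4 (SD, n = 6). The 6 pool the libraries of both factors and are not 6 replicates of 1 factor. These SDs thus hold differences between factors as well as between replicates. Sox17, a SoxF endoderm factor, gave 2.36 ± 0.803, and Pdgfra, the receptor that marks PrE and XEN cells, gave 3.11 ± 0.353. In paired exact sign-flip tests over the 6 libraries, none of the 3 differences from Gata6 passed 0.05 (Gata4 -0.255 ± 1.29, Sox17 0.565 ± 1.27, Pdgfra -0.182 ± 0.755, mean ± SD of the difference; exact p = 0.719, 0.344 and 0.625, each 0.719 after Benjamini-Hochberg adjustment over 3). A p of this size does not show that the loci are alike. The number of regions at Gata4 was far higher, 99 merged regions, on a chromosome with 36.1 to 43.9 regions per Mb, and 13 of its regions were in the combined GATA4 list and 8 in the combined GATA6 list.

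In the combined lists, Gata6 had 4 GATA4 regions. At least 1 was found at 60.4% of protein-coding genes under the same window rule, and 4 or more at 16.0%. On chromosome 18 those shares were 54.4% and 7.60%. The 1 GATA6 region of Gata6 compared with 50.3% of genes that had any, or 45.2% on chromosome 18, and equalled the median of 1 over all genes. Windows are longer for longer genes, so these shares describe a rule, not equal lengths.

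**Figure D5:**
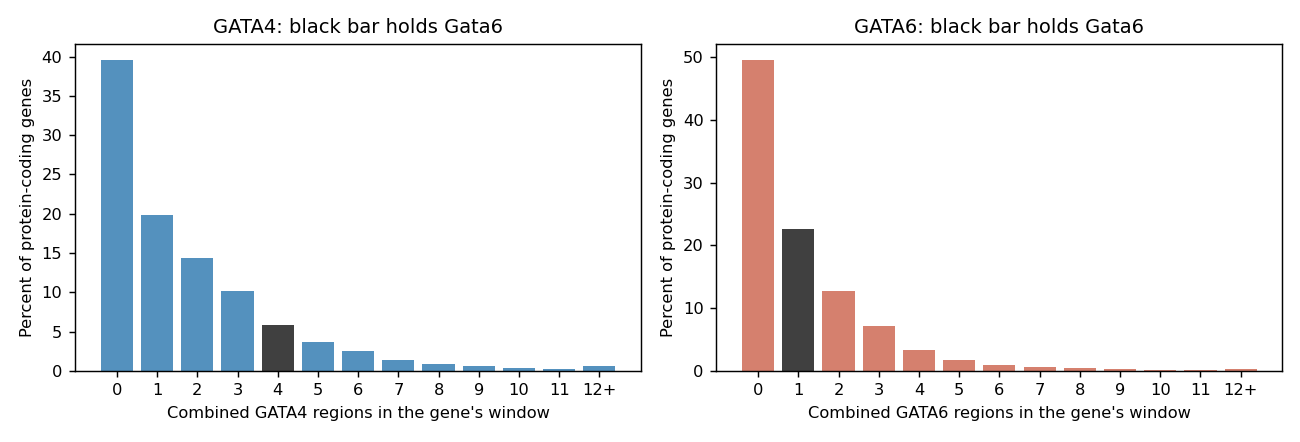
Percent of 21755 protein-coding genes (y axis) by the number of combined GATA4 (left) or GATA6 (right) regions in their window (x axis), with the bar that holds Gata6 in black. Gata6 sits at 4 GATA4 regions, with 10.2% of genes above it, and at 1 GATA6 region, with 27.7% of genes above it.

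Among 7 regulators and markers of the PrE (Gata4, Sox17, Sox7, Pdgfra, Foxa2, Hnf4a and Dab2), every gene had a combined region of each factor in its window, where 60.4% of all genes had one of GATA4 and 50.3% one of GATA6. A region over a TSS in all 6 libraries, as at Gata6, was present at 4 of the 7: Sox17, Sox7, Pdgfra and Dab2, the last an endocytic adaptor of endoderm. Of the other GATA genes Gata1 to Gata5, none had one (10.1% of all genes). Gata2, a regulator of blood progenitors, had 4 combined GATA4 regions and 1 combined GATA6 region, as Gata6 did, and Gata5 had 2 and 1. Gata3 had 0 and 1, and Gata1, the erythroid factor, had neither. No combined GATA4 region was found at 39.6% of all genes.

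The genes most like Gata6 in their counts were St6galnac6, Smim10l2a and Coro1c. Likeness was the sum of absolute differences over 8 values, the regions in the window in each of the 6 libraries and in both combined lists. The sums were 3 for St6galnac6, 4 for Smim10l2a and 5 for Coro1c, and 5 genes in all had a sum of 5 or less. Coro1c was tied with the remaining genes at 5 and was taken by alphabetical order. The genes tied with it lie beside St6galnac6 on chromosome 2, with overlapping windows. They had no region over a TSS in all 6 libraries. Of these 3 genes, Coro1c was the only one with a region over a TSS in all 6 libraries.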

How the data were processed

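Per the labels and the methods text, read pairs were mapped by the authors to mm10 (Bowtie2 2.3.4.1), filtered for duplicates, mapping quality, mitochondrial origin and blacklisted sequence (Picard, SAMtools, bedtools), and passed to SEACR 1.3 library by library in stringent mode without normalisation. The threshold was numeric rather than an IgG track, so the length of a list is largely set by it and says little of the amount of binding. The deposited lists give each region's position, total signal and maximum signal, unscaled for depth, and the 2 combined lists give positions only. Merging the 3 lists of a factor and keeping the regions present in all 3 gave the positions of the combined lists, for 8282 of 8282 GATA4 and 5170 of 5170 GATA6 regions.

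Genes and TSSs came from GENCODE M21 (all transcripts) and sequence from GRCm38. Overlapping or touching calls became 1 merged region. Factors were compared by two-sided exact permutation over libraries, and genes by exact sign-flip tests. Depth per library is unknown, so precision is given as the SD over libraries. Every merged region in the window was described, and the genes named were those in the window, a list of PrE regulators, the GATA family and the 3 nearest by counts, genes within 1 Mb of Gata6 left out. The locus, the gene lists and the alternatives were chosen with earlier results of these data known. Counting, merging and motif code was tested on simulated lists. Sequence of this chromosome and 1 gene of the PrE list are not reported here. Python 3.11.15, numpy 2.4.6, pandas 2.3.3, pysam 0.24.0 and matplotlib 3.10.9 were used.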

Additional observations from a re-analysis of the deposited data

How the results depend on the processing

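Of 90 alternative values, 77 kept their direction or stayed within the spread or 1.5 times of the value given. The 13 that moved were counts of regions and GATA4 density ratios, which have no sign to change. The GATA4 minus GATA6 differences in regions and in signal share were positive throughout, and the p of their exact permutation or sign-flip tests ran from 0.1 to 0.7, but 3 against 3 libraries cannot reach 0.05.

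Within 50 kb the common regions stayed at 4 for GATA4 and 1 for GATA6 and the difference at 2.33 regions, but there were 15 merged regions and a GATA4 density 5.05 times that of the rest of the chromosome, and within 200 kb there were 47 merged regions, 7 regions common to the GATA4 replicates and 3 common to the GATA6 replicates. Against all autosomes the GATA4 density ratio was 2.40. With TSSs of protein-coding transcripts alone, an alternative chosen after seeing the data, 22 merged regions remained.

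Asking for at least 2 of 3 replicates gave 7 GATA4 regions and 3 GATA6 regions. Leaving out 1 GATA6 library gave 1 to 2 common GATA6 regions, 2 without replicate 1 or replicate 2. The motif was found in 16 regions within 250 bp of the summit (69.0% of all merged regions), in 15 anywhere in the region (69.5%) and, for the core letters GATA, in 14 (69.5%).

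No pairing of the libraries by number was seen, with deviations of same-numbered ones correlated at 0.00104 to 0.00148 over all merged regions. Of those regions 83.2% were called in 1 library, so this check cannot exclude a pairing. Fitted with a replicate block, GATA4 exceeded GATA6 by 2.33 regions (exact sign-flip p = 0.5; the smallest possible is 0.25) and 0.00593 percentage points of signal (p = 0.5, exact). Filtered depth is unknown, so a call in a single library does not show that the other libraries lacked signal there.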
